A study of Mus musculus with 2 samples.

Results

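The family of microRNAs (miRNAs) around miR-15, miR-16, miR-322 and miR-503 was followed in J1 mouse embryonic stem cells (mESCs) after 24 h of MEK inhibition. Its members were chosen by gene name: the 7 hairpins Mir15a, Mir16-1, Mir15b, Mir16-2, Mir322, Mir503 and Mir497 of the 1174 hairpins with a miRNA name in the GENCODE M21 annotation. Of 8598 distinct sequenced tags that matched any of the named hairpins perfectly over their whole length, 131 matched a family hairpin. The 131 tags were read 12292 times in the control and 14016 times in the treated library. Tags of Mir16-1 and Mir16-2 that are the same in both hairpins were counted once.

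J1 is an established mESC line, grown here without feeder cells on gelatin in Knockout medium with serum replacement and 1000 U/mL of LIF, a cytokine that sustains self-renewal. The treated cells (PD) received 1 μM PD0325901, an inhibitor of MEK and thereby of ERK1/2 signaling, and the control cells an equal volume of its solvent, DMSO. RNA from 3 experiments was pooled for each treatment and sequenced as 1 small RNA library, so there are no replicates and no test between treatments, and every interval given is a 95% interval of read counting only. There were 18870345 clean reads for DMSO and 20944808 for PD, and levels are given per 1000000 of these clean reads (RPM). At this depth 3 reads, taken as the lowest level that could be told from 0, correspond to 0.159 RPM for DMSO and 0.143 RPM for PD.

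Each miRNA hairpin is cut into a duplex, of which one strand, the guide, is loaded into an Argonaute protein and finds messenger RNAs mainly through its seed, the bases that follow the first base at the 5′ end. The guide strands of this family come from the 5p arm and pair with messenger RNAs of cell-cycle and survival genes such as cyclins D and E, Cdk6 and Bcl2, and the family is best known as a brake on the passage from G1 to S phase. The DLEU2 locus with MIR15A and MIR16-1 is often deleted in human chronic lymphocytic leukemia. mESCs divide with a very short G1 phase.

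All 7 members had mature sequences in RefSeq (build GRCm38.p6), with 13 names in all because both miR-16 hairpins give the same 5p miRNA. The 5p miRNAs are shown first because the family is defined by them. Capitals mark bases 2 to 8, the seed.
miR-15a-5p: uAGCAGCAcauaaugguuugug
miR-15b-5p: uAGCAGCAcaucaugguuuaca
miR-16-5p: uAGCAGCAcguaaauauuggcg
miR-497a-5p: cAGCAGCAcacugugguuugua
miR-322-5p: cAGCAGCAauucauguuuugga
miR-503-5p: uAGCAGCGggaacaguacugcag

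The seed AGCAGCA was the same in 5 of these 6 miRNAs. miR-503-5p carried AGCAGCG, which shares only bases 2 to 7 with the others. miR-15a-5p, miR-15b-5p and miR-16-5p had the same first 9 bases and diverged after them. Between miR-15a-5p and miR-15b-5p 18 of 22 bases were the same without gaps, between miR-15a-5p and miR-16-5p 16 of 22, and between miR-503-5p and miR-497a-5p 10 of 22, the lowest of the 15 pairs.

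The 3p strands share no seed, and 3 of them are shown because the results below turn on where they start or end. Capitals again mark bases 2 to 8.
miR-16-1-3p: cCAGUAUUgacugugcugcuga
miR-16-2-3p: aCCAAUAUuauugugcugcuuu
miR-322-3p: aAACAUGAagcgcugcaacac

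The members lie in 4 groups on GRCm38. Mir15a (chr14:61632027-61632110) and Mir16-1 (chr14:61631880-61631972) lie on the minus strand 54 nt apart within the noncoding gene Dleu2. Mir15a lies in an intron, and Mir16-1 overlaps exon 1 of the transcript Dleu2-215 at least in part. Mir15b (chr3:69009772-69009835) and Mir16-2 (chr3:69009902-69009996) lie on the plus strand 66 nt apart in an intron of Smc4, which encodes a condensin subunit. Mir322 (chrX:53054255-53054349) and Mir503 (chrX:53053984-53054054) lie on the minus strand 200 nt apart, in no other annotated gene. Mir497 (chr11:70234717-70234800) lies on the plus strand, 241 nt from Mir195a, and Mir497b is annotated on the opposite strand over it.

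The pair of miR-16 hairpins is shown to make clear what the reads can separate. Capitals mark the most frequent tag of each arm.
Mir16-1: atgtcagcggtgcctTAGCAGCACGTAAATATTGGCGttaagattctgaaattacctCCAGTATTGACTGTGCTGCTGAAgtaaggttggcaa
Mir16-2: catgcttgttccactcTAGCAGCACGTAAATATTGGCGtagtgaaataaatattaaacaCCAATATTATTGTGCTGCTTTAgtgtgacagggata
The 5p strand is the same in both, and its neighbour on the 3p side is also the same base, so that a 23 nt tag is still shared. Of the 131 family tags, 12 matched both hairpins, with 5291 control and 6120 PD reads. Only 13 control and 21 PD reads of miR-16-5p fit Mir16-1 alone, and 16 and 7 reads fit Mir16-2 alone, too few to divide miR-16-5p between its genes. The 3p strands differ and were counted apart. No family tag matched a miRNA hairpin outside the members or another annotated transcript.

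The cells were checked by marker miRNAs. Of 9 hairpins of the miR-290 and miR-302 clusters, which mark pluripotent mouse cells, 8 reached 1 RPM, with levels that summed to 20783 RPM in control cells and 18066 RPM in PD cells. The miR-290 cluster gave nearly all of this sum. By clean reads, Mir290a (10996 and 9086 RPM), Mir291a (1941 and 1796 RPM), Mir294 and Mir295 (2587 and 2469 RPM) were lower in the PD library. Scaled by the reads that match miRNA hairpins, Mir291a and Mir295 would be higher, so their direction depends on the scaling. Mir292 (1956 and 1983 RPM), Mir302a (10.44 and 17.67 RPM) and Mir302d (2.915 and 6.78 RPM) were higher. Mir302b, with 31 and 38 reads, and Mir302c, with 3 and 4 reads, had too few reads to give a direction. The miR-302 hairpins were scarce, from 0.159 RPM (Mir302c) to 10.44 RPM (Mir302a) in the control. miR-293-3p, with 11549 and 9620 RPM, was outside this list. Of 7 hairpins known from other tissues, 5 also reached 1 RPM and none was at 0, with summed levels of 455 and 677 RPM, most of it from Mir124a-1 (257 and 476 RPM) and Mir1a-1 (157 and 166 RPM). Their part in the family's values was not tested.

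By clean reads, the family as a whole had nearly the same level in both libraries. Its reads came to 651 RPM for DMSO and 669 RPM for PD, which is 1.03-fold (95% interval 1.003 to 1.05). As a share of the reads that match miRNA hairpins the family held 0.564% and 0.664%, and these reads made up 11.56% of the control and 10.08% of the PD library. Among miRNAs of at least 1 RPM in either library, 6 had the full seed AGCAGCA, the family's 5 and miR-195a-5p. They summed to 433 RPM for DMSO and 435 RPM for PD, which is 1.01-fold (95% interval 0.976 to 1.04). By clean reads the summed level of this seed thus differed by less than counting error, while by the other 4 scalings it was higher in the PD library, from 1.13-fold (95% interval 1.097 to 1.165) with TMM to 1.22-fold (1.182 to 1.255) with clean reads of 20 to 24 nt.

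miR-16-5p made up 43.3% of the family's control reads and 43.9% of its PD reads. It was read 5320 times with DMSO (282 RPM) and 6148 times with PD (294 RPM), or 1.04-fold (95% interval 1.003 to 1.08). It ranked 56 of 499 detected miRNAs in the control and 54 in the PD library. Detected means a level of 1 RPM or more for DMSO, for PD or for both.

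miR-503-5p, the member with the divergent seed, was the next most abundant, with 2876 control reads (152 RPM) and 3300 PD reads (158 RPM) and a fold change of 1.03 (95% interval 0.983 to 1.09). miR-15b-5p followed with 1541 reads (81.7 RPM) and 1678 reads (80.1 RPM), a fold change of 0.981 (95% interval 0.915 to 1.05). miR-15a-5p, its near copy from the other cluster, had 532 reads (28.2 RPM) and 558 reads (26.6 RPM), a fold change of 0.945 (95% interval 0.838 to 1.07). Per read of miR-15a-5p there were 2.90 reads of miR-15b-5p in the control and 3.01 in the PD library, a ratio that differed by less than counting error. It covers these strands only and does not settle the balance of the paired clusters. The share of miR-16-1-3p in the summed 3p reads of the miR-16 hairpins, from the same clusters, differed by 4.79 percentage points (95% interval 1.92 to 7.87). Levels of different miRNAs are compared here as read counts, which also depend on how well each end ligates to the adapters.

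By clean reads, miR-497a-5p was the only 5p strand of the family whose interval lay wholly below 1, and by the other 4 scalings its interval included 1. It had 397 control reads (21.04 RPM) and 342 PD reads (16.3 RPM), a fold change of 0.776 (95% interval 0.670 to 0.899). miR-195a-5p, encoded next to it and carrying the same seed, had 296 and 267 reads (15.7 and 12.7 RPM), a fold change of 0.813 (95% interval 0.686 to 0.962). Both were lower in the PD library by clean reads, and neither reached the 1.5-fold criterion used here for a change.

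miR-322-5p, the 5p strand with the fewest reads, had 76 control reads (4.03 RPM) and 119 PD reads (5.68 RPM). Its fold change of 1.41 was the largest of the 11 detected arms in the direction of the PD library, and its interval of 1.05 to 1.91 was wide. Its hairpin gave mostly the other strand, miR-322-3p, with 882 reads (46.7 RPM) and 1066 reads (50.9 RPM), a fold change of 1.09 (95% interval 0.995 to 1.19). The 5p strand held 7.93% of the reads of both strands in the control (95% Wilson interval 6.39 to 9.82) and 10.04% in the PD library (8.46 to 11.9). The difference was 2.11 percentage points (95% interval -0.353 to 4.52). This share depended on the tags counted. With tags of 21 nt or more it was 3.67% in the control (2.55 to 5.26) and 8% in the PD library (6.44 to 9.9). With tags identical to the mature miRNA it was 5.14% (3.42 to 7.66) and 12.2% (9.73 to 15.2).

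Mir322 thus differed from the other members, whose 5p strand carried most reads. The 5p share was 93.5% in the control and 93.8% in the PD library for Mir15b, 96.9% and 95.7% for Mir15a, and at least 99.4% in both libraries for Mir503 and Mir497. More 3p than 5p reads were no rarity in these cells, since they were found in 54.3% of the hairpins with both arms read and at least 100 reads. The hairpin is shown with its most frequent tags in capitals.
Mir322: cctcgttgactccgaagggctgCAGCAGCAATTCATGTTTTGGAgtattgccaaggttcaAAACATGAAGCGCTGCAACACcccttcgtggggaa

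**Figure D1:**
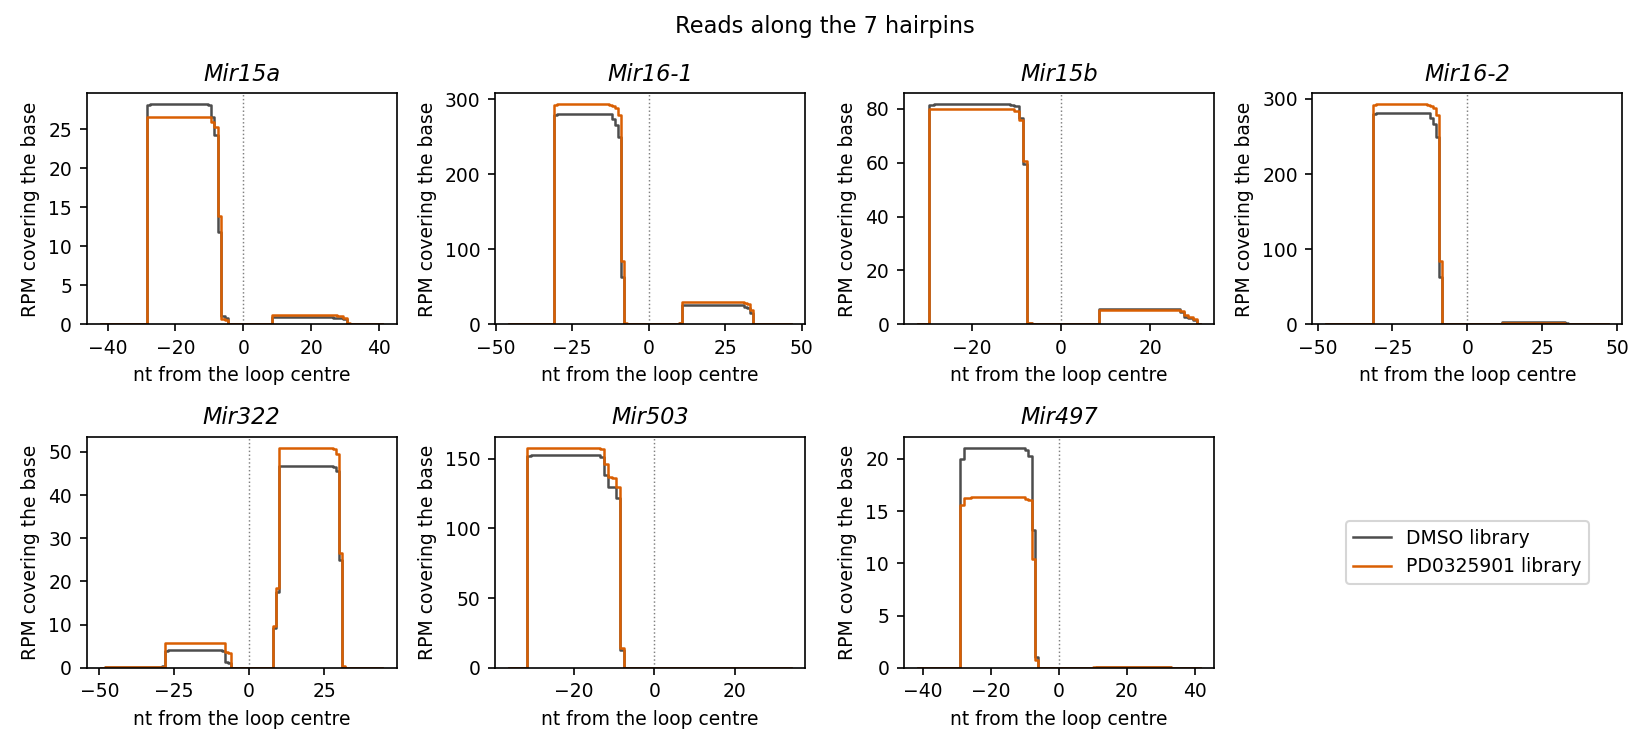
Reads along the 7 family hairpins: the horizontal axis is the distance in nt from the centre of the loop, with the 5p arm on the left, the vertical axis is the RPM of tags that cover the base, and the grey and orange lines are the DMSO and PD0325901 libraries. The right-hand peak is the taller only in the panel of Mir322, and the miR-16-5p peak of about 282 and 294 RPM appears in the panels of both miR-16 hairpins because its tags are shared.

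The remaining 3p strands are the usual passengers. miR-16-1-3p had 485 control reads (25.7 RPM) and 629 PD reads (30.0 RPM), a fold change of 1.17 (95% interval 1.04 to 1.32). miR-16-2-3p had 50 reads (2.65 RPM) and 30 reads (1.43 RPM), a fold change of 0.541 (95% interval 0.332 to 0.867). The paralogous strands thus differed in opposite directions, and of their summed reads miR-16-1-3p held 90.7% in the control (95% Wilson interval 87.9 to 92.8) and 95.4% in the PD library (93.6 to 96.8), a difference of 4.79 percentage points (95% interval 1.92 to 7.87). This share does not depend on the size of the libraries. It rests on 50 and 30 reads of miR-16-2-3p, and the spread between cultures is unknown.

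miR-15b-3p had 107 and 111 reads (5.67 and 5.30 RPM), a fold change of 0.935 (95% interval 0.710 to 1.23). miR-15a-3p had 17 and 25 reads (0.901 and 1.19 RPM), a fold change of 1.33 (95% interval 0.688 to 2.61). miR-503-3p had 2 control reads and 0 PD reads, and miR-497a-3p 1 and 2, all below the 3 reads needed to be told from 0. The levels of miR-15b-3p and miR-15a-3p thus differed by less than counting error between the libraries. For miR-503-3p and miR-497a-3p the counts were too low for a difference to be detected.

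In the order of the control library, neighbouring levels were separated by more than counting error down to miR-15a-5p. miR-15a-5p and miR-16-1-3p overlapped in both libraries and changed places between them. miR-15b-3p and miR-322-5p did the same at a lower level.

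**Figure D2:**
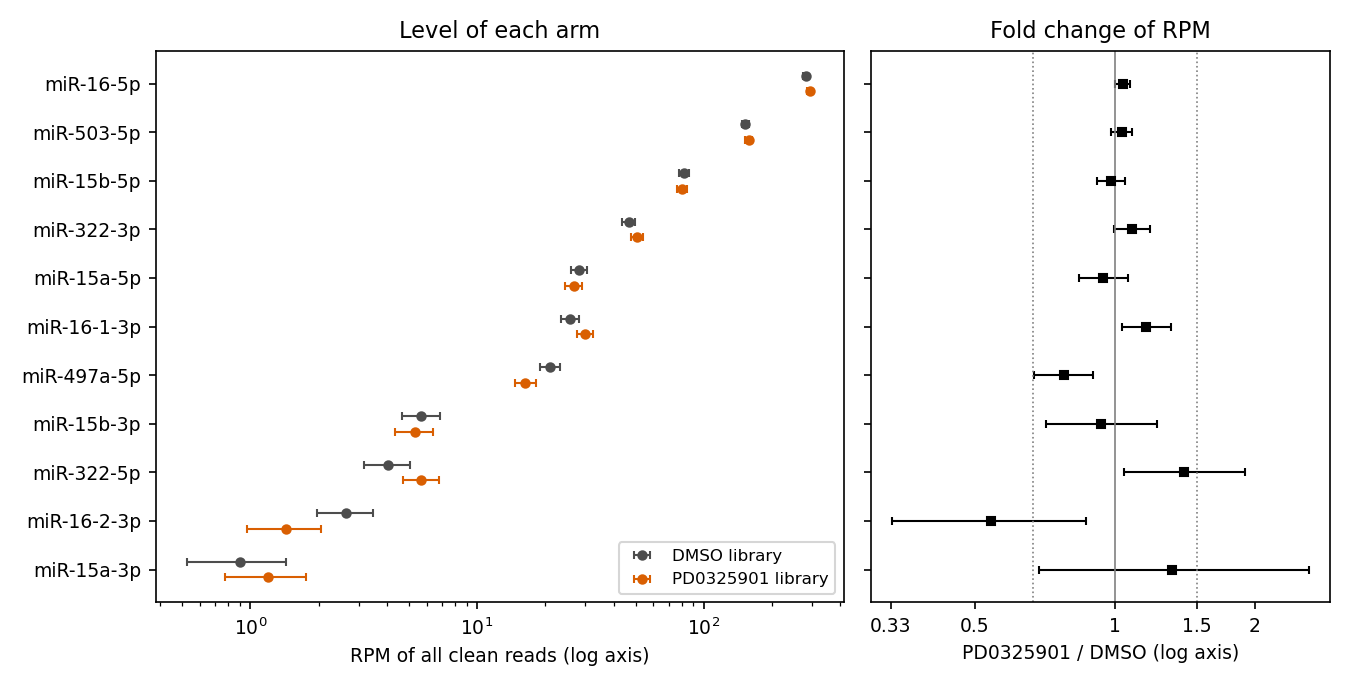
Levels and fold changes of the 11 detected arms: the left panel gives RPM on a log axis in the DMSO (grey) and PD0325901 (orange) libraries with exact 95% Poisson intervals, and the right panel the fold change of RPM on a log axis with its exact 95% interval, a solid line at 1 and dotted lines at 1.5-fold either way. The levels run from 282 and 294 RPM for miR-16-5p to 0.901 and 1.19 RPM for miR-15a-3p, and only miR-16-2-3p lies beyond a dotted line.

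By the criterion of 1.5-fold, 0 of the 11 detected arms were higher and 1, miR-16-2-3p, was lower in the PD library. Of all 499 detected miRNAs 19.8% passed this criterion, 6.01% as higher and 13.8% as lower. Both counts depend on the scaling. By the other 4 scalings described below, 2 or 3 of the 11 arms passed (18.2% to 27.3%), against 15.4% to 16.4% of all detected miRNAs, and more detected miRNAs were then higher than lower, 48 and 30 with the reads that match miRNA hairpins, 59 and 23 with clean reads of 20 to 24 nt, and 43 and 34 with both TMM and DESeq2 factors. Which share past 1.5-fold was the larger, that of the family or that of all detected miRNAs, thus turned with the scaling. The family's share rests on only 1 to 3 arms. A change of denominator alone moves all log2 fold changes alike and leaves the family's place among the miRNAs as it was. Of the detected arms 6 were higher and 5 lower, with a median log2 fold change of 0.05, while over all detected miRNAs 163 were higher and 336 lower, with a median of -0.17 and quartiles of -0.41 and 0.06. Of the 11 arms 9 lay above that median, the exceptions being miR-16-2-3p and miR-497a-5p.

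The direction of several arms depends on the scaling, because scaling by miRNA reads in place of all clean reads raises every log2 fold change by the same amount, 0.17 with the TMM factors of edgeR and 0.20 with the reads that match miRNA hairpins. With either, the family sum was higher in the PD library, by 1.15-fold and 1.18-fold. miR-15a-5p, miR-15b-5p and miR-15b-3p, which were slightly lower by clean reads, were then slightly higher, and miR-322-5p passed 1.5-fold with 1.58-fold (TMM) and 1.62-fold. miR-16-2-3p and miR-497a-5p had a fold change below 1 under each of the 5 scalings tried. The interval of miR-497a-5p lay wholly below 1 only by clean reads and included 1 under the other 4, for example 0.872 (95% interval 0.753 to 1.01) with TMM. That of miR-16-2-3p included 1 with the clean reads of 20 to 24 nt, 0.655 (95% interval 0.402 to 1.05).

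**Figure D3:**
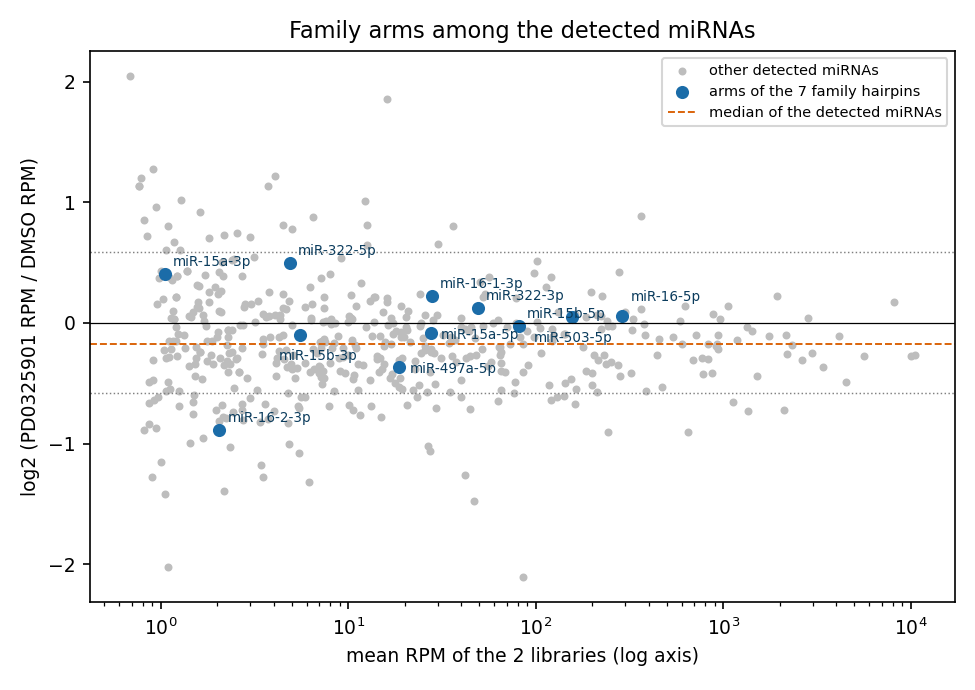
Family arms among the 499 detected miRNAs, without any miRNA that had 0 reads in a library: the horizontal axis is the mean RPM of the 2 libraries (log axis), the vertical axis the log2 ratio of PD0325901 to DMSO RPM, blue points are family arms, grey points other miRNAs, the dashed line the median of all detected miRNAs, -0.17, and the dotted lines 1.5-fold either way. By clean reads, 9 of the 11 family arms lie above the dashed line, and a scaling by miRNA reads would move all points up alike, so that miR-15a-5p, miR-15b-5p and miR-15b-3p would cross 0.

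The hairpins next to the members on the same strand, within 10 kb, were taken as relatives. So was any detected miRNA with bases 2 to 7 of miR-16-5p. The relatives were Mir195a beside Mir497 and 5 hairpins beside Mir503, and miR-195a-5p was the only detected miRNA outside the members with that seed. Of their 11 miRNAs with reads 7 were detected. By clean reads, 3 of these were higher and 4 lower in the PD library. None of them, 0 of 7, passed 1.5-fold by clean reads, against 19.8% of all 499 detected miRNAs. These counts depend on the scaling too. Each of the other scalings raises every fold change, and miR-351-5p then passes 1.5-fold. On the X chromosome miR-351-5p had 37 and 59 reads, a fold change of 1.44 (95% interval 0.937 to 2.23), and miR-542-3p 94 and 85 reads, a fold change of 0.815 (95% interval 0.6003 to 1.10). The detected neighbours were far less abundant than miR-503-5p, between 1.96 and 8.11 RPM in the control library. miR-195a-3p was listed with 0 control and 7 PD reads, below detection.

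Outside the family and its relatives, the 3 miRNAs nearest to miR-16-5p in log2 RPM over the 2 libraries were miR-92b-3p (288 and 306 RPM), the 5p arm of Mir30d (330 and 318 RPM) and miR-23a-3p (256 and 252 RPM). Their distances from miR-16-5p were 0.07, 0.26 and 0.26 log2 units.

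The ends of the strands were read from the tags. For 8 of the 11 detected arms the most frequent tag was the RefSeq sequence itself. miR-16-1-3p was most often 1 base longer at its 3′ end, and the most frequent tag of miR-15b-3p was 19 nt long, tied with the RefSeq form at 63 reads over both libraries. The start of miR-16-2-3p differed from RefSeq. Its more frequent form began 1 base downstream, and capitals mark bases 2 to 8 of each form.
downstream start: cCAATATTattgtgctgcttta
RefSeq start: aCCAATATtattgtgctgcttt
The downstream start took 35 of 50 control reads (70.0%, 95% Wilson interval 56.2 to 80.9) and 16 of 30 PD reads (53.3%, 36.1 to 69.8), a difference within counting error.

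miR-322-3p began at 3 frequent positions, and each start gives another seed. The leading tag of each start is shown with bases 2 to 8 in capitals.
RefSeq start: aAACATGAagcgctgcaacac
1 base upstream: aAAACATGaagcgctgcaaca
2 bases upstream: cAAAACATgaagcgctgcaaca
The RefSeq start took 550 of 882 control reads (62.4%, 95% Wilson interval 59.1 to 65.5) and 680 of 1066 PD reads (63.8%, 60.9 to 66.6). The start 1 base upstream took 18.1% and 17.1%, and the start 2 bases upstream 19.5% and 19.04%. These proportions differed by less than counting error between the libraries. Over both libraries the leading start of miR-322-3p held 63.1% of the reads, against a median of 98.0% over the 297 miRNAs with at least 100 reads in each library, of which 29 had a lower share.

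The 5p strands of the family were cut precisely at their 5′ end. The RefSeq start held 99.5% of miR-16-5p reads in the control and 99.7% in the PD library, and at least 99.46% of the reads of miR-15a-5p, miR-15b-5p and miR-503-5p in both. It held 95.2% and 95.6% for miR-497a-5p and 94.7% and 98.3% for miR-322-5p. The seed of nearly all 5p reads was thus the annotated one in both libraries.

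At the 3′ end the libraries differed. Tags of 18 to 20 nt held 1205 of 12286 family arm reads in the control (9.81%, 95% Wilson interval 9.29 to 10.3) and 968 of 14008 in the PD library (6.91%, 6.5 to 7.34). Nearly all of these reads lacked the last bases of the RefSeq form. These short tags had a fold change of 0.724 (95% interval 0.664 to 0.788), and the longer tags one of 1.06 (95% interval 1.03 to 1.09). This split by length was chosen after the tag lengths had been seen.

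The shift was clearest in miR-16-5p, whose tags end at successive bases. The tags are shown with the seed in capitals, from the longest.
23 nt: tAGCAGCAcgtaaatattggcgt
22 nt: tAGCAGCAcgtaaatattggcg
21 nt: tAGCAGCAcgtaaatattggc
20 nt: tAGCAGCAcgtaaatattgg
The 23 nt tag had 1172 control and 1737 PD reads, and the 22 nt tag, the RefSeq form, 3504 and 4086. The 21 nt tag had 317 and 191 reads and the 20 nt tag 144 and 52. The 2 longer tags were thus more frequent and the 2 shorter tags less frequent in the PD library. In all, tags of 18 to 20 nt held 5.26% of miR-16-5p reads in the control (95% Wilson interval 4.69 to 5.90) and 1.53% in the PD library (1.25 to 1.87), a difference of -3.73 percentage points (95% interval -4.43 to -3.07).

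miR-15a-5p showed the same shift, from 73 of 532 reads (13.7%) to 30 of 558 (5.38%), a difference of -8.35 percentage points (95% interval -11.9 to -4.89). So did miR-16-1-3p, from 53 of 485 reads (10.9%) to 27 of 629 (4.29%), a difference of -6.64 points (95% interval -9.998 to -3.53). miR-15b-3p, a strand with many short tags, had 65 of 107 (60.7%) and 49 of 111 (44.1%), a difference of -16.6 points (95% interval -29.1 to -3.34). In miR-15b-5p, from 6.04% to 5.24%, and in miR-497a-5p, from 3.78% to 2.34%, the intervals of the difference included 0. miR-503-5p had 14.9% and 13.2% (95% interval of the difference -3.48 to 0.0026 points), and miR-322-3p, at 16.8% and 18.01%, was the one arm with a higher share in the PD library among the 8 family arms with at least 100 reads in each.

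miR-322-5p is shown because its fold change turns on tag length. Capitals mark the seed.
22 nt: cAGCAGCAattcatgttttgga
20 nt: cAGCAGCAattcatgttttg
The 22 nt tag had 22 control and 68 PD reads and the 20 nt tag 44 and 43. Without tags of 18 to 20 nt, miR-322-5p had 28 and 76 reads and a fold change of 2.45 (95% interval 1.57 to 3.92), against 1.41 with all its tags. Tags of 18 to 20 nt held 63.16% of its reads in the control and 36.13% in the PD library. The difference was -27.02 percentage points (95% interval -39.85 to -12.67). The level of these short tags differed by less than counting error, with a fold change of 0.807 (95% interval 0.522 to 1.24).

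**Figure D4:**
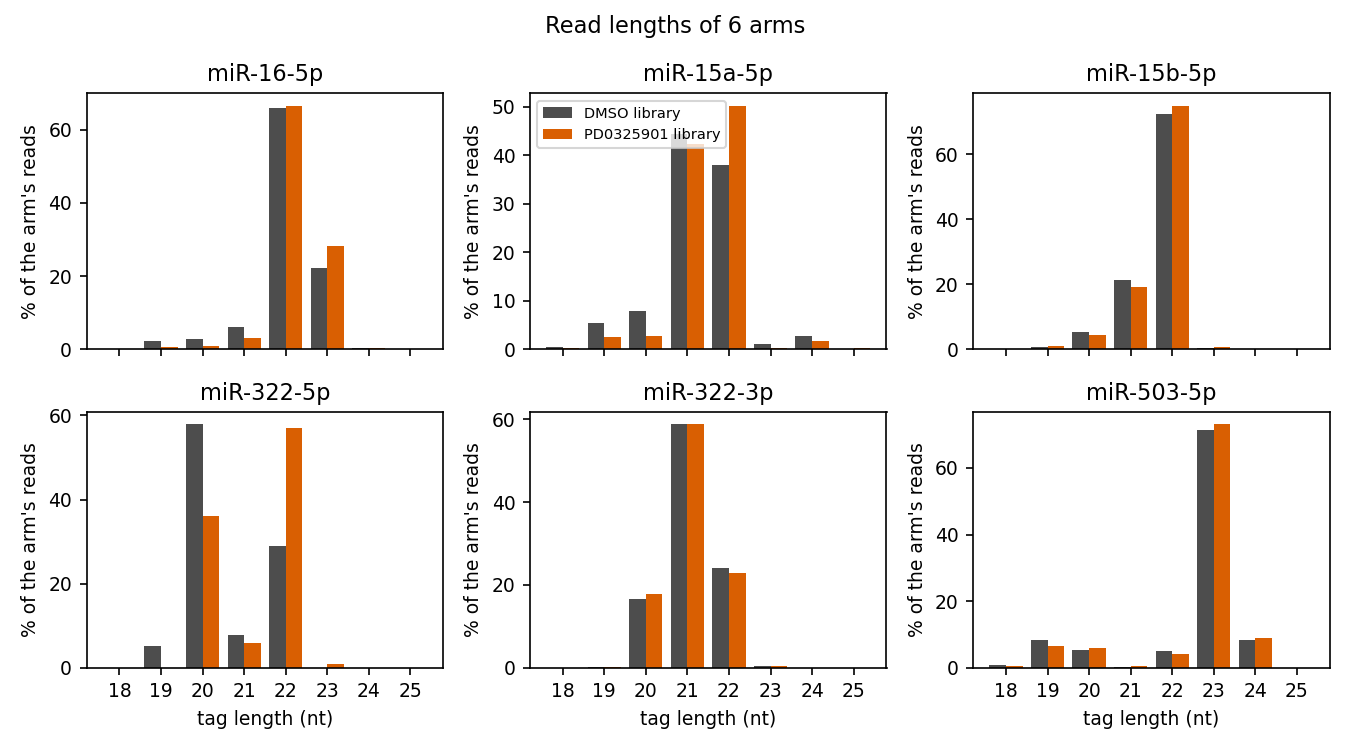
Read lengths of 6 family arms: the horizontal axis is the tag length in nt, the vertical axis the percent of the arm's reads in that library, with grey bars for DMSO and orange bars for PD0325901, 1 library each. miR-322-5p is mostly 20 nt long in the control (57.9%) and 22 nt in the PD library (57.1%), miR-16-5p has more 23 nt tags in the PD library (22.1% and 28.3%), and miR-322-3p has nearly the same profile in both.

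A lower share of short tags was common to most miRNAs of these libraries. Over the 297 miRNAs with at least 100 reads in each library, 234 (78.8%) had a lower share of tags of 18 to 20 nt in the PD library, with a median difference of -1.01 percentage points and quartiles of -3.78 and -0.10. Among all reads that match miRNA hairpins, tags of this length made up 9.49% in the control and 5.38% in the PD library. The family's 7 of 8 arms with a lower share are thus close to that background. Over all clean reads, tags of this length made up 21.3% in the control and 18.6% in the PD library, and with 1 library each a library effect and a treatment effect cannot be told apart.

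**Figure D5:**
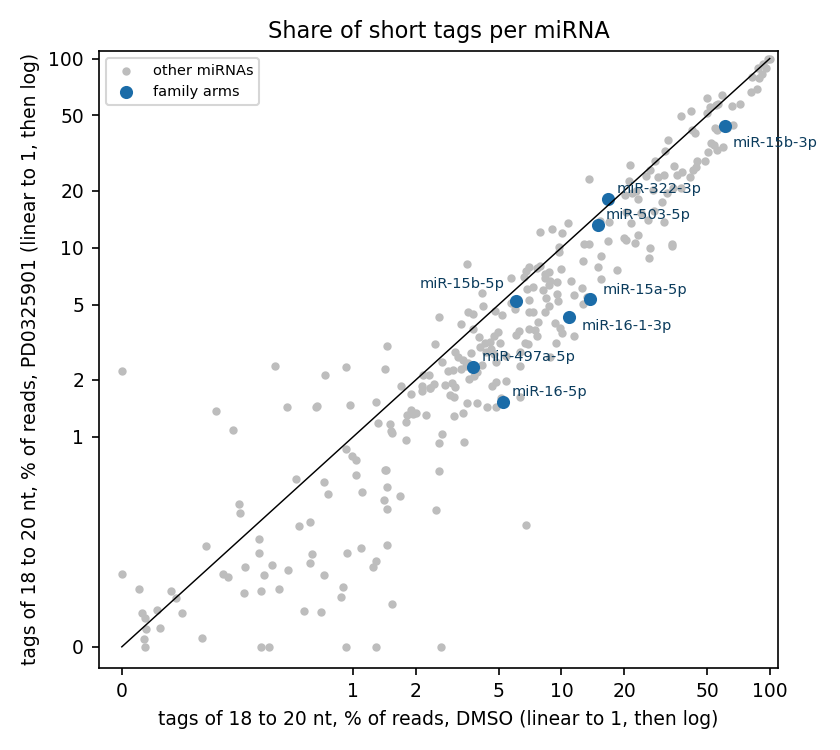
Share of short tags in each of 297 miRNAs: the axes give the percent of a miRNA's reads in tags of 18 to 20 nt in the DMSO (horizontal) and PD0325901 (vertical) library, both linear up to 1 and log above, with family arms in blue, other miRNAs in grey and the line of equality in black. Most points lie below the line, miR-16-5p (5.26% and 1.53%) and miR-15a-5p (13.7% and 5.38%) among them, and miR-322-3p (16.8% and 18.01%) lies just above it.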

How the data were processed

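The authors isolated small RNA from a gel, sequenced it, filtered out adapters, contaminants and reads that were short or of low quality, and deposited raw counts of identical clean reads (tags), neither aligned nor normalized. Members, lists and the length split were chosen with earlier results of these data known.

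Tags of at least 18 nt were matched with Python 3.11.15 to the hairpins of GENCODE M21 (GRCm38), perfectly and over their whole length. RNAfold of ViennaRNA 2.7.2 located the loop between the arms. The most frequent tag of an arm, over both libraries, was taken as its mature miRNA, and tags overlapping it by at least 16 nt were counted. Arms with the same most frequent tag were merged, which left 1139 miRNAs with reads. Fold changes of RPM have exact Clopper-Pearson intervals, levels exact Poisson intervals, shares Wilson intervals and differences of shares Newcombe intervals, computed with SciPy 1.17.1. They cover the sampling of reads, not of molecules, cultures or libraries.

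Named were every arm with at least 1 RPM in either library, arms below it by reads, the relatives defined above and the 3 miRNAs nearest to miR-16-5p. The quasi-likelihood test of edgeR needs replicates and was not run. edgeR 4.0.16 and DESeq2 1.42.0, in R 4.3.3, gave scaling factors only. The counting was tested on simulated data. Alternatives were 4 denominators, 5 choices of tags, 2 filters and a 2-fold criterion.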

Additional observations from a re-analysis of the deposited data

How the results depend on the processing

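No paired analysis was possible because each treatment had 1 library of pooled RNA. The fold change of the family sum, 1.03 by clean reads, was 1.18 with the reads that match miRNA hairpins as denominator, 1.24 with the clean reads of 20 to 24 nt, 1.15 with TMM factors and 1.16 with DESeq2 size factors, all by a change of denominator alone. It was 1.06 both with tags identical to the mature miRNA only and with tags of 21 nt or more. In each the sum was higher in the PD library. The number of family arms at least 1.5-fold higher, 0 by clean reads, was 2 with miRNA reads and with reads of 20 to 24 nt (miR-15a-3p and miR-322-5p), and 1 with TMM, with DESeq2 size factors, with identical tags, with tags of 21 nt or more and with no filter. The number at least 1.5-fold lower, 1, was 2 with no filter and 0 at 10 RPM or at a 2-fold criterion. For all detected miRNAs, the 30 higher and 69 lower became 48 and 30 with miRNA reads, 59 and 23 with reads of 20 to 24 nt, 263 and 296 with no filter, 7 and 25 at 10 RPM, and 10 and 16 at 2-fold, and 43 and 34 with TMM and with DESeq2 size factors. Of 99 fold changes of single arms under these alternatives 73 stayed inside the arm's own interval and 26 left it. miR-322-5p left its interval most, at 2.79 with identical tags and 2.45 with tags of 21 nt or more. Only miR-16-2-3p was called by clean reads, and it did not turn direction. Several arms that were not called did turn. miR-15a-5p and miR-15b-5p were above 1 under the other scalings, and miR-15a-3p was below 1, at 0.837, with identical tags. With short tags limited to 18 to 19 nt, an alternative added after seeing the data, the share of miR-16-5p was 2.46% in the control and 0.667% in the PD library and that of miR-503-5p 9.39% and 7.09%. Without replicates, no difference here can be set against the spread between cultures.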

Other observations

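Tags with 1 to 3 bases at the 3′ end that the hairpin does not encode fall outside the counts above. Tails of this kind are added after processing by nucleotidyl transferases. A T that follows miR-16-5p in both hairpins cannot be told from a tail and was counted as encoded. Added A was the common form on miR-503-5p, and the leading tag is shown with the added base in capitals.
miR-503-5p with A: tagcagcgggaacagtactgcagA
This tag had 140 control and 167 PD reads. Tailed tags in all held 12.7% of miR-503-5p reads in the control (95% Wilson interval 11.6 to 13.8) and 14.4% in the PD library (13.3 to 15.5), a difference of 1.71 percentage points (95% interval 0.117 to 3.29). On miR-322-3p, from the neighbouring hairpin, T was the common addition.
miR-322-3p with T: aaacatgaagcgctgcaacacT
This tag had 93 control and 88 PD reads, and tailed tags held 14.8% of miR-322-3p reads in the control (95% Wilson interval 12.8 to 17.1) and 11.5% in the PD library (9.78 to 13.4), a difference of -3.32 points (95% interval -6.16 to -0.523). The tailed shares of these 2 strands, whose hairpins are neighbours, thus differed in opposite directions. In the other detected arms of the family the interval of this difference included 0. How large such differences were over the other miRNAs was not examined. miR-16-5p had fewer tails, 4.08% and 3.89% (95% interval of the difference -0.894 to 0.519 points), mostly A. miR-497a-5p had 11.2% and 13.6% (95% interval of the difference -2 to 7 points). Tails of T alone, on few reads, differed in both strands. On miR-497a-5p they had 7 control and 18 PD reads, a difference of 2.98 points (95% interval 0.659 to 5.63). On miR-16-5p they had 14 and 6 reads, a difference of -0.159 points (95% interval -0.337 to -0.00811). Over the 297 miRNAs with at least 100 reads in each library, the median share of tailed reads in both libraries together was 8.16%, and 101 of them had a higher share than the 13.6% of miR-503-5p.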
